A study of Homo sapiens with 18 samples.

Results

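Farage, an established human cell line of germinal centre-type diffuse large B-cell lymphoma, was treated with a small-molecule inhibitor of BCL6 or with the solvent DMSO, and its messenger RNA was sequenced. The comparison used 6 libraries of the 18 in the study, 3 from inhibitor-treated and 3 from DMSO-treated Farage cells. Its genes were all named loci with at least 1 FPKM (sequenced fragments scaled to the length of the transcript and to the mapped fragments of the library) in 3 or more of these 6 libraries, 10837 of 26004 named loci. Of these 9645 reached that level in all 6 libraries, 280 passed only through the inhibitor libraries and 390 only through the DMSO libraries. A gene that passed only through the libraries of 1 group had to be higher in that group, so its direction is no separate result. Among genes with levels given below this holds for OSGIN1, FOS, BAG3, FOSL2, BACH2, CD69, PRDM1, CXCL8, a locus of CTBP2 and, through DMSO, SPC24. Such genes stay in the counts and medians of their lists below, and in the shares over all genes. List members without levels given may have passed in the same way. The third highest library stood at 1.0 FPKM for RNF208, just inside the limit, and at 0.999 FPKM for LOC101929225, just outside it. The other 12 libraries came from inhibitor-treated and DMSO-treated SUDHL6 and SUDHL4, lines of the same lymphoma type, with 3 libraries a group. All lines grew in RPMI1640 medium with 10% fetal bovine serum. The sample titles give 12 h of treatment in each group where the source names give 24 h, so the time is uncertain. Neither the compound nor its dose is named in the sources used here. Nor is it stated whether the replicates were separate cultures, so each p below measures only the spread between these samples, which may be technical.

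BCL6 is a zinc finger repressor that germinal centre B cells need while they divide rapidly and edit their antibody genes. It recruits corepressors such as NCOR1 and BCOR through its BTB domain and keeps genes of cell cycle arrest, DNA damage sensing, migration and plasma cell differentiation low. Inhibitors of BCL6 are built to block that recruitment or the protein itself, so that repressed genes can be transcribed again. Farage cells carry Epstein-Barr virus, whose latency proteins are known to drive several NF-kB and activation genes of the host cell.

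The 3 inhibitor libraries resembled each other across genes with Pearson's r between 0.9642 and 0.9740, and the 3 DMSO libraries with r between 0.9626 and 0.9700. Between inhibitor and DMSO libraries r lay between 0.8554 and 0.8748. These correlations are across genes, which are not independent replicates. The FPKM of a library summed to between 1208130 and 1322560 under the inhibitor and to between 1304760 and 1336650 in DMSO, and small RNA loci held 42.0 to 53.7% of a sum. The absolute depth is unknown. Values at unnamed loci of 56 bases move in steps of 1 read, which gave a relative depth of 0.865 to 0.997 of the median in inhibitor libraries and 1.00 to 1.11 in DMSO libraries. The part of depth in the results was not tested.

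Markers of B cells were present in both groups. MS4A1, which encodes CD20, was at 228, 241 and 234 FPKM in the inhibitor libraries and at 436, 470.0 and 459 FPKM in the DMSO libraries, and CD37, a B cell tetraspanin, was at 123, 117 and 123 FPKM against 129, 124 and 127 FPKM. Of 14 T and NK cell markers 13 stayed below 1 FPKM in every library and the highest value was 1.351 FPKM, with CD3D, CD3E and CD4 listed at 0 throughout. Of 13 monocyte markers 11 stayed below 1 FPKM and the highest value was 2.232 FPKM, with CD163, S100A9, FCGR3A and CD33 listed at 0. The highest values were 1.062 FPKM for fibroblast and endothelial markers, 1.581 FPKM for epithelial markers and 0.718 FPKM for erythroid and granulocyte markers. Summed over its list, each of these marker sets stayed at or below 4.055 FPKM in the inhibitor libraries and 2.567 FPKM in the DMSO libraries. In bulk samples of this kind, fewer cells of a type and less RNA per cell cannot be told apart.

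Most measured genes differed between the groups. In limma on log2(FPKM + 1), with Benjamini-Hochberg adjustment over all 10837 genes and a threshold of 0.05, 3905 genes were higher under the inhibitor (36.0%) and 5017 were lower (46.3%), 82.3% in either direction. Without adjustment 83.3% passed. A log2 fold change of at least 1 in either direction, called 2-fold below, set a smaller group apart. It held 984 genes that rose (9.08%) and 1477 that fell (13.6%). Groups of libraries did not overlap for 4043 genes with all inhibitor libraries above (37.3%) and for 5102 with all inhibitor libraries below (47.1%). The median log2 fold change was -0.11 and the median standard error 0.06. The largest changes were mostly rises, with 171 genes higher and 117 lower by a log2 fold change of 2 or more, and 52 higher and 13 lower by 3 or more. With so many genes called, a count of calls within a gene list says little by itself. Each such count is to be read against 36.0% higher and 46.3% lower, and each list median against -0.11, also where these are not repeated. The genes include 448 small RNA loci, whose FPKM jump between 0 and large values because 1 read at a short locus is worth many FPKM, and they are not described further. Log2 fold changes here understate the change of genes near 1 FPKM, because 1 was added to each value. A value in parentheses after the levels of a gene is its log2 fold change, inhibitor over DMSO, with its standard error (SE) where given.

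**Figure D1:**
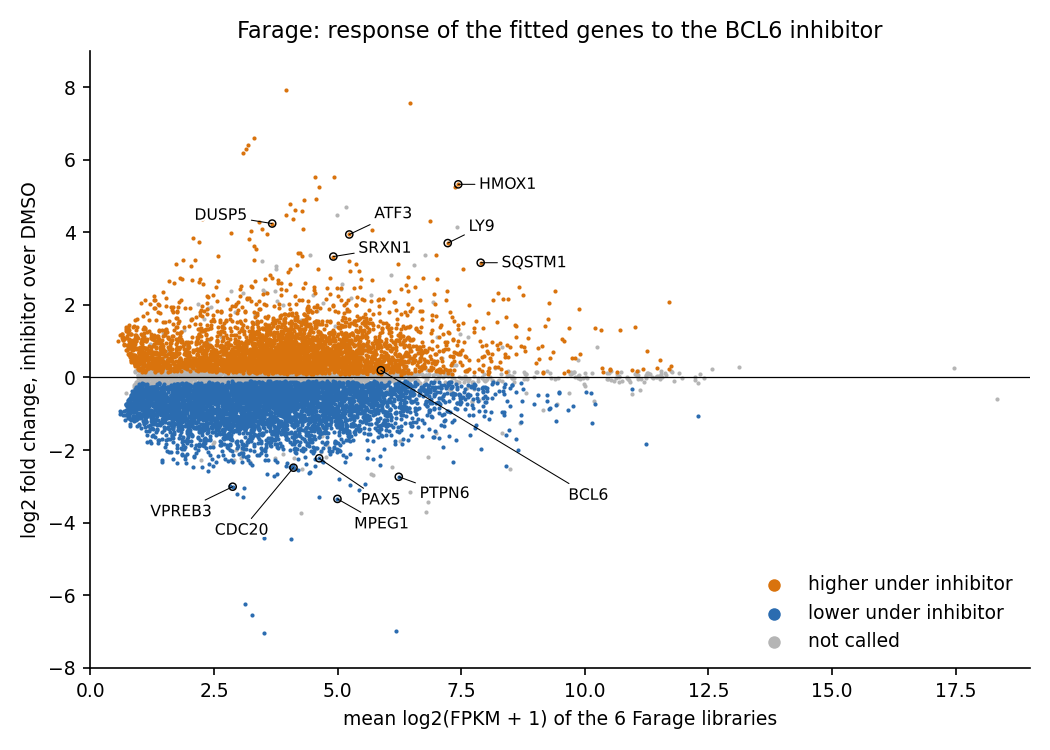
Log2 fold change of inhibitor over DMSO, on the log2(FPKM + 1) scale (vertical axis), against the mean log2(FPKM + 1) of the 6 Farage libraries (horizontal axis) for the 10837 genes. Orange points are the 3905 genes called higher, blue points the 5017 called lower and grey points those not called, and HMOX1 stands highest among the labelled genes at 5.32, below a few microRNA and small nucleolar RNA loci.

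BCL6 itself was slightly higher in inhibitor-treated Farage. The gene, on chromosome 3 from 187388558 to 187463515 of hg19, was at 60.5, 60.6 and 64.6 FPKM in the inhibitor libraries, against 54.5, 53.6 and 53.3 FPKM in the DMSO libraries. All 3 inhibitor libraries lay above all 3 DMSO libraries, as held for 37.3% of all genes. The log2 fold change was 0.20 (SE 0.04, adjusted p = 0.00249). In a fit of all 18 libraries, whose estimate of the spread includes the other lines, the same change was not called (adjusted p = 0.133). The inhibitor targets the protein, so this RNA does not check the labels.

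The 15 largest rises were taken among called single-gene loci of at least 5 FPKM on average whose groups do not overlap. Symbols shared by several loci were left out, so some larger rises are described only with their lists. The 15 held several stress genes, described first. HMOX1, which encodes the heme-degrading enzyme heme oxygenase 1, held 1041, 1103 and 1149 FPKM in the inhibitor libraries, against 25.6, 27.4 and 26.5 FPKM in the DMSO libraries. The lowest inhibitor library stood far above the highest DMSO library, and the log2 fold change was 5.32 (SE 0.05, adjusted p = 6.21e-08). OSGIN1, an oxidative stress-induced growth inhibitor, was at 19.2, 19.8 and 23.2 FPKM with inhibitor and at 0.0813, 0.0218 and 0.0539 FPKM in DMSO, near absence in every control library (4.36, SE 0.08). SRXN1, which encodes the peroxiredoxin-repairing enzyme sulfiredoxin, was at 92.5, 93.6 and 97.8 FPKM against 8.01, 8.69 and 8.84 FPKM (3.33, SE 0.05). MAFF, a small MAF protein that pairs with NRF2, was at 33.8, 37.5 and 30.3 FPKM against 1.99, 1.83 and 1.62 FPKM (3.63, SE 0.09). ATF3, a transcription factor induced by many stresses, was at 142, 151 and 147 FPKM against 7.99, 9.28 and 8.63 FPKM (3.94, SE 0.06). DNAJB1, the HSP40 cochaperone, reached 397, 409 and 426 FPKM with inhibitor where DMSO libraries held 36.9, 39.8 and 39.2 FPKM (3.38, SE 0.05). That the groups do not overlap in these genes follows from how the 15 were chosen.

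The other 9 of these 15 have varied roles. DUSP5, a nuclear phosphatase that inactivates ERK and a literature target of BCL6, was at 51.0, 55.3 and 57.6 FPKM in the inhibitor libraries, against 1.89, 2.13 and 1.82 FPKM in the DMSO libraries (4.24, SE 0.06, adjusted p = 1.65e-07). TNFRSF10D, a decoy receptor for the death ligand TRAIL, was at 45.7, 47.1 and 46.0 FPKM against 1.21, 1.42 and 1.66 FPKM (4.29, SE 0.07). LY9, a receptor of the SLAM family of lymphocytes, was at 535, 563 and 521 FPKM against 38.0, 41.9 and 41.8 FPKM (3.70, SE 0.05). By the same choice all 3 genes were lower in each DMSO library than in each inhibitor library. FOS, a subunit of AP-1, averaged 18.1 ± 1.40 FPKM under the inhibitor and 0.873 ± 0.0593 FPKM in DMSO (SD, n = 3 each, 3.35). VEGFA, the angiogenic growth factor, averaged 61.4 ± 1.64 FPKM and 5.14 ± 0.349 FPKM in the same order (3.34). GABARAPL1, an autophagosome protein, rose by 3.82, KLHL21, a substrate adaptor of a cullin ubiquitin ligase, by 3.98, CAB39L, a scaffold related to MO25 of the LKB1 kinase complex, by 4.04, and the long noncoding RNA LUCAT1 by 3.73, all on the log2 scale.

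The 15 largest falls, chosen in the same way, held genes of B cell identity and of cell division. MPEG1, which encodes the pore-forming protein perforin-2, was at 8.62, 9.32 and 9.10 FPKM in the inhibitor libraries, against 105, 97.3 and 100.4 FPKM in the DMSO libraries, a log2 fold change of -3.35 (SE 0.04, adjusted p = 1.58e-07). VPREB3, a B cell protein of the surrogate light chain family, was at 1.24, 2.47 and 1.24 FPKM against 19.0, 21.3 and 19.3 FPKM, with inhibitor replicate 2 above the other 2 inhibitor libraries (-3.01, SE 0.18). PTPN6, which encodes the phosphatase SHP-1, was at 26.9, 25.8 and 32.3 FPKM against 191, 201 and 190.4 FPKM (-2.74, SE 0.08). SHP-1 is the main phosphatase recruited by inhibitory receptors of B cells. POU2F2, the B cell octamer factor OCT2, was at 5.84, 5.73 and 6.28 FPKM with inhibitor and 38.7, 37.6 and 36.1 FPKM in DMSO (-2.47, SE 0.05). CDC20, the activator of the anaphase-promoting complex, was at 6.30, 6.10 and 6.46 FPKM against 38.5, 41.4 and 39.6 FPKM (-2.49, SE 0.04). Here too the groups do not overlap because the genes were chosen so. SNX22, a sorting nexin, had a log2 fold change of -3.05, CUX2, a homeobox factor, of -2.99, CDCA7, a cell division gene that MYC and E2F are known to drive, of -2.79, and ELL3, an elongation factor of germinal centre B cells, of -2.62. KCNN4, a calcium-activated potassium channel, changed by -2.66, EXOSC5, a subunit of the RNA exosome, by -2.61, IKBKE, an innate immune kinase, by -2.58, SIT1, a lymphocyte adaptor, by -2.56, and RSAD1 by -2.46. The locus UNQ6494 changed by -2.72.

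**Figure D2:**
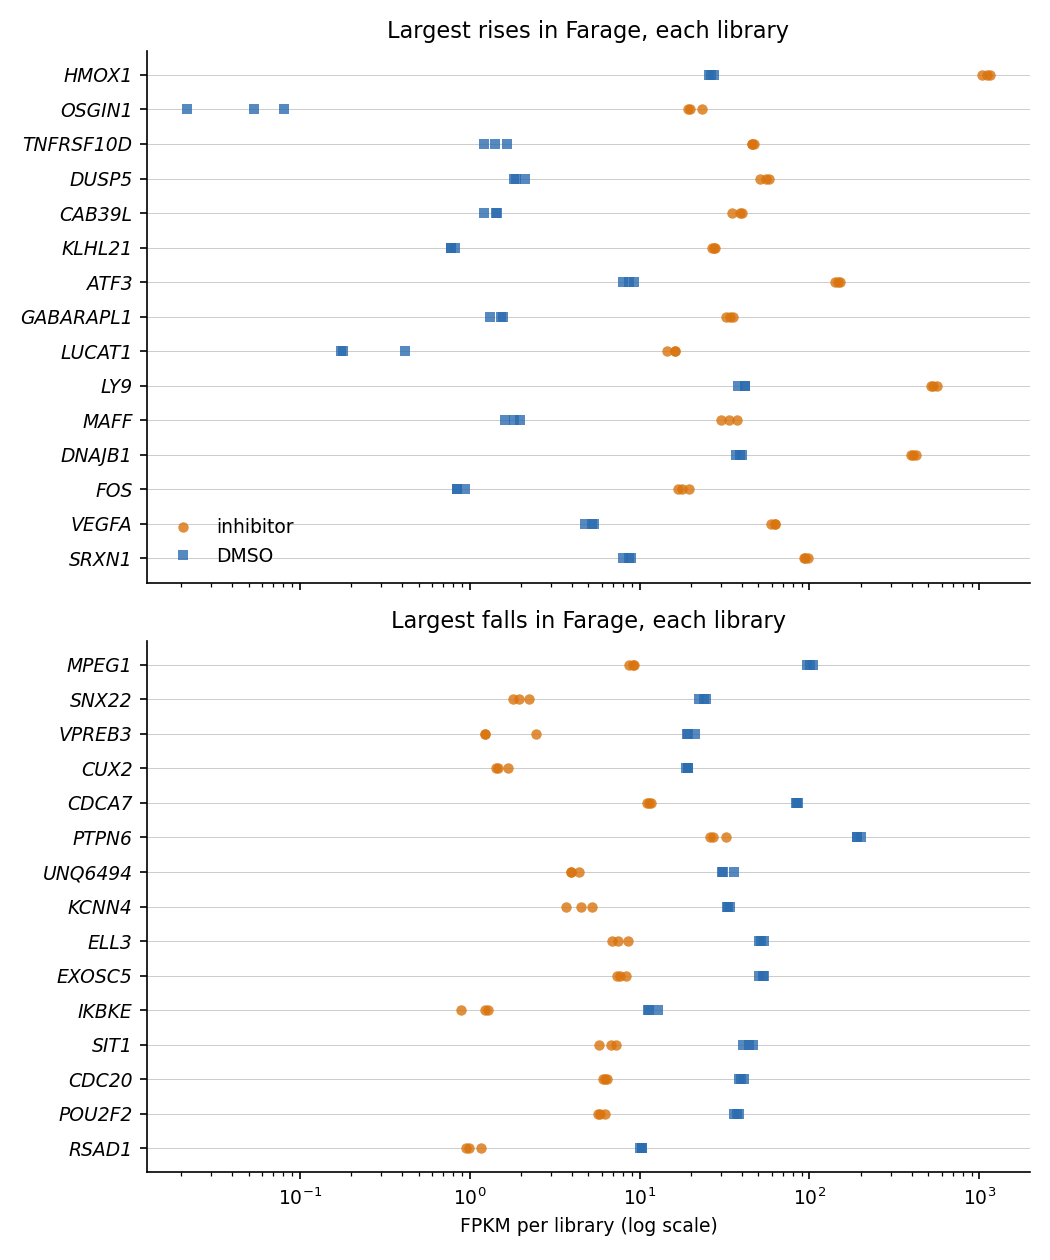
FPKM in each of the 6 Farage libraries (horizontal log axis) for the 15 genes with the largest rises (upper panel) and the 15 with the largest falls (lower panel). Orange circles are the 3 inhibitor libraries and blue squares the 3 DMSO libraries, and the 30 genes were chosen so that the groups do not overlap.

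Heat shock chaperones, which refold proteins and are switched on by the factor HSF1, rose in most of their members. Of 29 genes listed, 23 passed the filter, of which 21 were higher (91.3%, against 36.0% of all genes) and 1 lower, with 18 higher by 2-fold (78.3%, against 9.08%). The median log2 fold change of the list was 1.45, against -0.11 over all genes. BAG3, the cochaperone of HSP70 in stressed cells, was at 8.24, 9.15 and 8.99 FPKM in inhibitor libraries and at 0.0957, 0.141 and 0.105 FPKM in DMSO libraries (3.13). HSPH1, the HSP110 chaperone, averaged 304 ± 9.66 FPKM under the inhibitor and 69.2 ± 1.37 FPKM in DMSO (SD, n = 3 each, 2.12). HSPA8, the constitutive HSC70 chaperone, averaged 2656 ± 84.1 FPKM and 1067 ± 69.5 FPKM in the same order (1.32). HSPA1B and HSPA1A, the inducible HSP70 genes, changed by 4.91 and 4.46, but they are neighbouring near-identical copies in the HLA region and how their reads were divided is uncertain. The member that fell was HSF1 itself, at 16.7, 16.9 and 18.7 FPKM against 22.8, 23.0 and 22.4 FPKM (-0.36, adjusted p = 0.000468).

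The sequence that HSF1 is known to bind stood in part of these chaperones' promoters. A heat shock element was searched as the units GAA, TTC and GAA with 2 free bases between each, on both strands of the 250 bases before each RefSeq gene start (GRCh38.p14), and it stood in 5 of 18 matched promoters of the list (27.8%), against 22 of 6807 fitted single-gene loci (0.323%) and 120 of all 27305 promoters (0.439%). Of the 589 matched genes that rose by 2-fold 8 held it (1.36%), and of the 909 that fell by 2-fold 2 held it (0.22%). CHORDC1, an HSP90 cochaperone (2.10), and HSPA6, an inducible HSP70 (2.04), are shown as the chaperones with the element and the largest rises. The element is in capitals, in overlapping copies on both strands in CHORDC1, whose window is chr11:90223050-90223299 on the minus strand, and once in HSPA6 at chr1:161524290-161524539 on the plus strand.
CHORDC1: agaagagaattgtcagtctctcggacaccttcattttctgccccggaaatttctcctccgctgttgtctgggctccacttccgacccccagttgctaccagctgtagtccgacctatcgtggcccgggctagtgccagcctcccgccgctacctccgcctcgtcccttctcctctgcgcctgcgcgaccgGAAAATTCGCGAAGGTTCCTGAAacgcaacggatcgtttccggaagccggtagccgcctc
HSPA6: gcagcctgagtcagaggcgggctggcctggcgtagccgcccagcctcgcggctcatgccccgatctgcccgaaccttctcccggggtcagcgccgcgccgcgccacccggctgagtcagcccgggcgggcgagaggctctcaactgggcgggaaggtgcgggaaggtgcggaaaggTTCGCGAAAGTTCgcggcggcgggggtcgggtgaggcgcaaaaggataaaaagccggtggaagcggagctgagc
A match of letters is a description of the window and no measured site of binding. These 2 genes, like those of the promoters below, were chosen after their values were seen.

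Genes of the NRF2 pathway, which answers oxidants and reactive chemicals, rose in most members too. Of 30 listed genes 21 passed the filter, of which 18 were higher (85.7%, against 36.0% of all genes) and 1 lower. By 2-fold 14 rose (66.7%, against 9.08%), and the median was 1.51. NFE2L2, which encodes NRF2, was at 117, 122 and 110.5 FPKM in inhibitor libraries and at 48.0, 48.7 and 51.0 FPKM in DMSO libraries (1.23, SE 0.05). SQSTM1, the autophagy receptor p62 that also releases NRF2 from its inhibitor KEAP1, was at 681, 687 and 766 FPKM against 75.0, 82.3 and 78.5 FPKM (3.16, SE 0.06). SLC7A11, the cystine transporter, rose by 3.44 at the more abundant of its loci of that name, at 59.8 ± 6.04 FPKM under the inhibitor and 4.59 ± 0.316 FPKM in DMSO (SD, n = 3 each). Iron-binding ferritin rose with them. FTH1, the ferritin heavy chain, averaged 964 ± 79.0 FPKM and 171 ± 7.35 FPKM in the same order (2.48), and the locus that joins the light chain FTL with BAX averaged 6896 ± 609 FPKM under the inhibitor and 1617 ± 97.3 FPKM in DMSO (log2 fold change 2.09). SLC48A1, a heme transporter, rose by 1.91. Among 15 fitted genes of iron, heme and metal handling 8 were higher and 6 lower.

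An antioxidant response element was searched as TGACNNNGC on both strands. It stood in 3 of 13 promoters of the NRF2 list (23.1%), against 12.5% of fitted loci and 11.0% of all promoters, so this short motif is common and the list's share rests on few promoters. It was more frequent in the lysosome list, in 8 of 19 promoters (42.1%), and among the amino acid transporters, in 4 of 15 (26.7%). In the mitosis list, whose genes mostly fell, it was nearly as frequent, in 6 of 28 (21.4%). Where its middle letters read TCA the element contains an AP-1 site, searched as TGANTCA. MAFF and TXNRD1, which encodes thioredoxin reductase (2.29), are the members with the element and the largest rises, shown with it in capitals at chr22:38201744-38201993 on the plus strand and chr12:104215529-104215778 on the plus strand.
MAFF: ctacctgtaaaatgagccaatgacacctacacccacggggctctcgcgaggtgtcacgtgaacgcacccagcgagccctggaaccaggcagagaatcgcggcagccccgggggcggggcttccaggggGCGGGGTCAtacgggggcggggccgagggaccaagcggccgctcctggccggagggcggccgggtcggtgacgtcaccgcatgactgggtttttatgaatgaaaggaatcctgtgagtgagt
TXNRD1: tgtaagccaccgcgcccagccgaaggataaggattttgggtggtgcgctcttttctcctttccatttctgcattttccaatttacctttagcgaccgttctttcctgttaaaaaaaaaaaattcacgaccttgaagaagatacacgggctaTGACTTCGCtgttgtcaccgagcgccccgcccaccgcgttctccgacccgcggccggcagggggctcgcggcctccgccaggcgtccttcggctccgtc

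The integrated stress response, in which ATF4 and its partners switch on amino acid supply and stress regulators, was higher in most of its regulators. Of 25 listed genes 18 passed the filter, of which 12 were higher (66.7%, against 36.0% of all genes) and 6 lower (33.3%, against 46.3%). By 2-fold 10 were higher and 2 lower, and the median was 1.71. The locus that joins ATF4 with MIEF1 averaged 602 ± 13.5 FPKM under the inhibitor and 190.1 ± 10.0 FPKM in DMSO (log2 fold change 1.66). DDIT3, which encodes the death-promoting factor CHOP, was at 105, 109.6 and 99.5 FPKM in inhibitor libraries and 12.0, 12.6 and 13.5 FPKM in DMSO libraries (2.95, SE 0.06). PPP1R15A, the phosphatase subunit GADD34 that reverses the response, was at 272, 283 and 264 FPKM against 40.5, 40.03 and 40.2 FPKM (2.73, SE 0.04). SESN2, a stress-induced inhibitor of mTORC1, rose by 2.17.

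Amino acid supply genes moved both ways. Of 19 fitted transporters 14 were higher (73.7%, against 36.0% of all genes) and 5 lower, the median was 0.76, and 8 rose by 2-fold. SLC3A2, the heavy chain shared by several transporters, was at 522, 534 and 524 FPKM with inhibitor and 67.9, 65.2 and 62.0 FPKM in DMSO (3.00), and SLC7A5, its leucine-carrying partner LAT1, was at 227, 221 and 227 FPKM against 33.7, 31.7 and 30.5 FPKM (2.78). Synthesis enzymes moved both ways, 10 of 19 higher (52.6%, against 36.0%) and 8 lower (42.1%, against 46.3%), with a median of 0.31. CTH, which makes cysteine, rose to 114 ± 1.35 FPKM in inhibitor libraries, against 11.3 ± 0.322 FPKM in DMSO libraries (SD, n = 3 each, 3.22). PSAT1, of serine synthesis, rose by 2.13, and ASNS, the asparagine synthetase, by 1.15. Of 14 cytosolic aminoacyl-tRNA synthetases, which charge tRNAs, 10 were higher (71.4%, against 36.0%) and 4 lower (28.6%, against 46.3%), with a median of 0.71. WARS rose by 1.36 and TARS by 1.43, whereas VARS, a gene of the HLA region, fell, with a log2 fold change of -1.68. Chaperones and sensors of the endoplasmic reticulum gave 13 higher (61.9%, against 36.0%) and 7 lower (33.3%, against 46.3%) of 21 with a median of 0.35. ERN1, the sensor IRE1, rose by 1.63 and HSPA5, the chaperone BiP, by 0.44 (adjusted p = 0.0677 in the fit of all 18 libraries), and PDIA4, a disulfide isomerase, fell, with a log2 fold change of -1.54.

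The element bound by ATF4 with a C/EBP partner was searched as TGATGNAA. It stood in 3 of 16 promoters of the integrated stress response list (18.8%) and in 3 of 12 of the synthesis enzymes (25.0%), against 1.31% of fitted loci and 3.19% of all promoters, and in 2.72% of the genes that rose by 2-fold. It stood in 1 of 8 promoters of the aminoacyl-tRNA synthetases (12.5%) and in 0 of 15 of the amino acid transporters. ATF3 and CHAC1, a glutathione-degrading enzyme (2.41), are the members of these 4 lists with the element and the largest rises, with it in capitals at chr1:212565157-212565406 on the plus strand and chr15:40953221-40953470 on the plus strand.
ATF3: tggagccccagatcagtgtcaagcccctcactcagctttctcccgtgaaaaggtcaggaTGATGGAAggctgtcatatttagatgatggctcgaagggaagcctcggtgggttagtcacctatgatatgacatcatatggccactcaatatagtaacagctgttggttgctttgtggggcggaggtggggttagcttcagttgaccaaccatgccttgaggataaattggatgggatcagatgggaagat
CHAC1: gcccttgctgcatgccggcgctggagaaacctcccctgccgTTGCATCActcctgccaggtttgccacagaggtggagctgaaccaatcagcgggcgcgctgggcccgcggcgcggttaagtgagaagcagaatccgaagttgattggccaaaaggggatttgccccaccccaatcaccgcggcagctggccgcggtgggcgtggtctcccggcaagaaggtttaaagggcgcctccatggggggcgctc

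Most hypoxia response and glycolysis genes were higher as well. Of 18 fitted genes of the hypoxia list 16 were higher (88.9%) and 1 lower, 14 of them by 2-fold (77.8%), with a median of 1.58. BNIP3, a mitophagy receptor and target of HIF1, was at 199.5, 208 and 197 FPKM in inhibitor libraries and 31.0, 36.0 and 33.8 FPKM in DMSO libraries (2.55, SE 0.06). KDM3A, a histone demethylase, rose by 1.68. Of 17 glycolysis genes 12 were higher (70.6%) and 4 lower, with a median of 0.67. SLC2A3, the glucose transporter GLUT3, was at 46.2, 46.4 and 42.0 FPKM against 6.93, 7.81 and 7.35 FPKM (2.46), and TPI1, the triose phosphate isomerase, averaged 1267 ± 100.3 FPKM and 304 ± 22.9 FPKM in the same order (2.06). HK2, the inducible hexokinase, rose by 1.37.

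Most lysosome and autophagy genes also rose. Of 31 lysosome genes 26 were higher (83.9%) and 4 lower, 17 higher by 2-fold (54.8%), with a median of 1.04. GLA, the lysosomal alpha-galactosidase, was at 117, 121 and 119 FPKM in inhibitor libraries and 13.98, 15.4 and 14.4 FPKM in DMSO libraries (2.94). LAMP1, a lysosomal membrane protein, rose by 1.22. TFEB, the factor that drives lysosomal genes, fell instead, at 32.2, 29.1 and 33.6 FPKM against 70.6, 70.9 and 67.3 FPKM (-1.11), and CTSH, a cathepsin abundant in B cells, averaged 71.1 ± 4.61 FPKM and 361 ± 23.0 FPKM in the same order (-2.33). The E-box CACGTG, which TFEB, MYC and MAX are known to bind, stood in 6 of 19 promoters of this list (31.6%), against 9.18% of fitted loci and 6.49% of all promoters. Of 29 autophagy genes 22 were higher (75.9%) and 4 lower, the median was 0.58, and MAP1LC3B, the marker protein LC3, was at 218, 227 and 225 FPKM against 37.5, 40.1 and 38.3 FPKM (2.50). Proteasome genes showed a smaller shift, 17 of 32 higher (53.1%, against 36.0% of all genes) and 12 lower (37.5%, against 46.3%), with log2 fold changes between -0.84 and 0.81.

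Factors that cells induce early after a signal were mostly higher. Of 12 fitted AP-1 factors 9 were higher (75.0%, against 36.0% of all genes) and 1 lower, 8 by 2-fold, with a median of 1.53, some of which (ATF3, MAFF) stand in the stress lists too. FOS and FOSL2, counted among the higher ones, passed the filter only through the inhibitor libraries and could not be lower. FOSL2, an AP-1 subunit, averaged 12.4 ± 0.604 FPKM under the inhibitor and 0.407 ± 0.0150 FPKM in DMSO (SD, n = 3 each, 3.25), and JUN rose by 1.33. Of 14 EGR, NR4A, KLF and IER genes 10 were higher (71.4%) and 3 lower, with a median of 1.15. NR4A1, an orphan nuclear receptor induced by antigen receptor signals, was at 92.3, 91.1 and 95.7 FPKM against 16.3, 16.3 and 15.7 FPKM (2.46). CSRNP1, a nuclear protein induced by AXIN1, rose by 2.99 and EGR1 by 1.21. Genes that restrain MAP kinases gave 10 of 12 higher (83.3%, against 36.0% of all genes) and 2 lower, with a median of 0.80, and DUSP1 rose by 2.52.

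**Figure D3:**
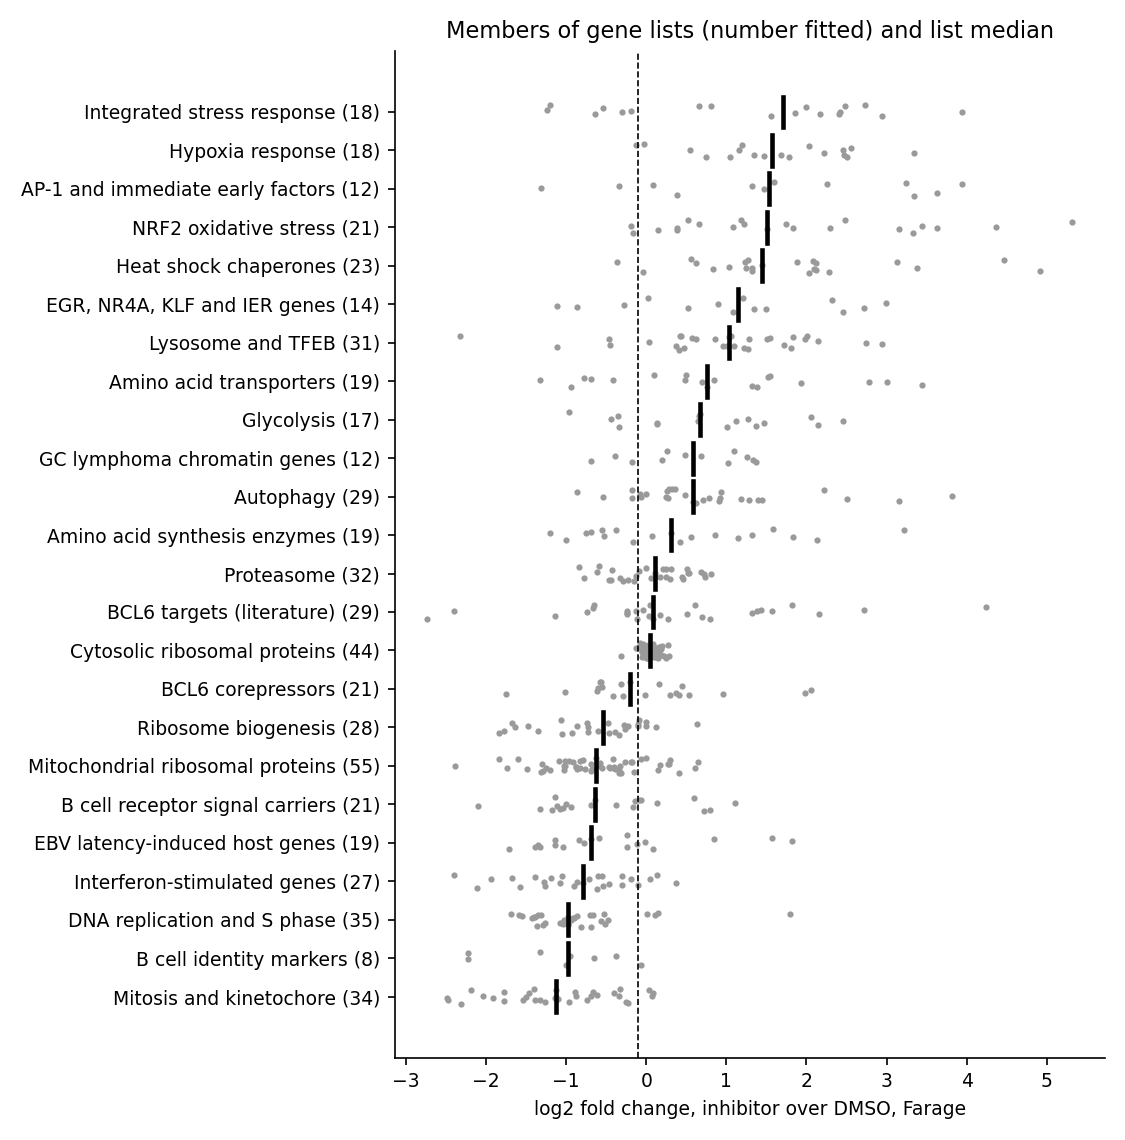
Log2 fold change of inhibitor over DMSO, on the log2(FPKM + 1) scale (horizontal axis), for the fitted members of 24 gene lists. Each grey point is a gene, each black bar is the list median, the dashed line is the median of all 10837 genes (-0.11), and the stress lists lie to its right while the mitosis and B cell lists lie to its left.

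Most of the B cell programme fell. All 8 fitted identity markers had lower means under the inhibitor and 7 passed the test (87.5%, against 46.3% of all genes), with a median of -0.98. PAX5, the factor that commits cells to the B lineage, was at 10.7, 10.2 and 10.4 FPKM in inhibitor libraries and at 55.5, 49.1 and 52.99 FPKM in DMSO libraries (-2.23, SE 0.05). Of members at loci that join several genes, the locus of CD79A and ARHGEF1 changed by -0.32 and that of CD79B with GH1 and GH2 by -1.34, and that of CD22 with FFAR1, MAG and MIR5196 was called higher (0.17). MS4A1 changed by -0.95 and the receptor-like gene FCRLA by -2.22. Of 21 germinal centre and B cell transcription factors 16 were lower (76.2%) and 3 higher, 11 lower by 2-fold (52.4%, against 13.6%), with a median of -1.03. POU2AF1, the coactivator OCA-B of POU2F2, was at 30.8, 31.2 and 33.6 FPKM against 67.1, 66.1 and 64.3 FPKM (-1.03), BCL11A, a zinc finger factor, changed by -2.10, and IRF8 by -0.30. The exceptions were BCL6, ID3, an inhibitor of E proteins (2.11), and BACH2, a repressor of plasma cell genes that was at 2.18, 1.79 and 1.82 FPKM with inhibitor and 0.134, 0.115 and 0.106 FPKM in DMSO (1.39). Of 17 germinal centre surface and signalling genes 14 were lower (82.4%), among them CXCR5, the receptor that guides B cells into follicles, at 14.6, 15.2 and 16.7 FPKM against 72.5, 70.2 and 70.6 FPKM (-2.13). GNA13, a G protein subunit that confines germinal centre B cells, rose by 1.04.

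Most carriers and most restraints of the B cell receptor signal fell. Of 21 fitted carriers 14 were lower (66.7%, against 46.3% of all genes) and 5 higher, with a median of -0.64. BLNK, the adaptor below the receptor, was at 13.0, 13.6 and 12.3 FPKM in inhibitor libraries and 56.9, 60.1 and 59.4 FPKM in DMSO libraries (-2.10), SYK, the kinase that phosphorylates it, changed by -1.11, and PLCG2, its phospholipase, by -1.18. Of 16 restraints 10 were lower (62.5%, against 46.3%) and 4 higher, with a median of -0.52. Beside PTPN6 these included INPP5D, the lipid phosphatase SHIP1 (-1.71), and FCGR2B, the inhibitory antibody receptor (-1.32). The SLAM family of lymphocyte receptors moved both ways, 4 of 7 fitted genes higher (57.1%, against 36.0% of all genes) and 2 lower (28.6%, against 46.3%). LY9 and SLAMF7 were among the higher ones and SLAMF6 was lower (-1.45). SLAMF7, which plasma cells also carry, was at 738, 773 and 697 FPKM against 161, 164 and 168 FPKM (2.15).

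Literature targets of BCL6 did not move as one. Of 35 listed genes 29 passed the filter, of which 14 were higher (48.3%, against 36.0% of all genes), 8 lower (27.6%, against 46.3%) and 7 were not called, and the median log2 fold change was 0.08. Of these 8 rose by 2-fold (27.6%, against 9.08%) and 3 fell by 2-fold (10.3%, against 13.6%). DUSP5 led the rises. CXCR4, the receptor of the germinal centre dark zone, was at 128, 133 and 118 FPKM in inhibitor libraries and 27.2, 27.6 and 27.6 FPKM in DMSO libraries (2.16, SE 0.05). CDKN1A, the gene of the cyclin-dependent kinase inhibitor p21, was at 133, 134 and 127 FPKM against 49.7, 48.4 and 46.1 FPKM (1.43). IRF4, a factor of activated B cells and plasma cells, was at 194, 202 and 189.7 FPKM against 56.1, 52.3 and 55.3 FPKM (1.82). These 3 were higher in every inhibitor library than in any DMSO library, as were 37.3% of all genes. CD69, an early activation antigen that passed the filter only through the inhibitor libraries, averaged 2.42 ± 0.0846 FPKM under the inhibitor and 0.312 ± 0.0213 FPKM in DMSO (SD, n = 3 each, 1.38). PRDM1, the master regulator of plasma cells, averaged 1.66 ± 0.156 FPKM and 0.533 ± 0.0161 FPKM in the same order (0.80), close to the filter's limit, which it too passed only through the inhibitor libraries. BCL2, the survival gene, rose by 0.70 and NFKB1, an NF-kB subunit, by 0.18, the NFKB1 change with no call in the fit of all 18 libraries (adjusted p = 0.433). PTPN6 went the other way. CD80, a costimulatory ligand (-0.74), and ATR, a DNA damage kinase (-0.67), fell by less. MYC was at 60.7, 57.4 and 70.0 FPKM against 67.3, 71.8 and 64.5 FPKM, with overlapping groups and no call (-0.12, adjusted p = 0.220). Without inhibitor replicate 3, the highest of its group, MYC changed by -0.20 (adjusted p = 0.0225).

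The BCL6 site TTCCTNGAA, searched in the same windows, was found in 0 of 22 matched promoters of these targets, against 0.867% of fitted loci and 1.4% of all promoters. That says only that these letters are not in those windows. Corepressors of BCL6 gave 9 higher (42.9%, against 36.0% of all genes) and 11 lower (52.4%, against 46.3%) of 21, with a median of -0.21. BCOR fell, at 2.28, 2.00 and 2.78 FPKM with inhibitor and 10.6, 9.94 and 10.2 FPKM in DMSO (-1.75), and NCOR1 was at 17.0, 16.7 and 17.6 FPKM against 18.1, 16.5 and 17.4 FPKM with no call. RYBP, a partner of polycomb and BCOR complexes, rose by 1.98. CTBP2 appears at several loci, one of which was at 3.62, 3.67 and 2.31 FPKM in inhibitor libraries and listed at 0 in all 3 DMSO libraries. Plasma cell genes moved both ways, 5 of 12 higher (41.7%, against 36.0% of all genes) and 7 lower (58.3%, against 46.3%). XBP1, the secretory factor, rose by 1.25, and TNFRSF17, the receptor BCMA, fell, with a log2 fold change of -2.24.

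Genes of the interferon response and of antigen presentation were mostly lower. Of 27 fitted interferon-stimulated genes 23 were lower (85.2%) and 2 higher, 11 lower by 2-fold (40.7%), with a median of -0.78. IFI35, an interferon-induced protein, was at 2.49, 2.66 and 3.61 FPKM in inhibitor libraries and 15.8, 16.4 and 15.2 FPKM in DMSO libraries (-2.11). ISG15, a ubiquitin-like modifier, was at 4.82, 4.15 and 3.81 FPKM against 13.2, 14.6 and 10.6 FPKM (-1.38), and OAS1, a sensor enzyme of viral RNA chosen here after its values were seen, was an exception at 0.37 that did not pass in the fit of all 18 libraries (adjusted p = 0.466). NLRC5, the activator of MHC class I genes, averaged 6.67 ± 0.365 FPKM and 27.2 ± 0.913 FPKM in the same order (-1.88), while B2M, the class I light chain, was at 1629, 1722 and 1717 FPKM against 1498, 1779 and 1657 FPKM with overlapping groups and no call (0.04). HLA-DMB, which loads peptides onto class II molecules, changed by -2.95 and CD74, the invariant chain, by -0.65. Genes of the HLA region such as HLA-DMB and PSMB9 (-2.44) have copies on alternate haplotype sequences, so their levels are uncertain.

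Host genes that Epstein-Barr virus latency proteins are known to induce were mostly lower too. Of 19 fitted 12 were lower (63.2%, against 46.3% of all genes) and 3 higher, 7 lower by 2-fold (36.8%, against 13.6%), with a median of -0.70. BCL2A1, an NF-kB-driven survival gene, was at 94.8, 89.3 and 91.8 FPKM in inhibitor libraries and 280.4, 323 and 307 FPKM in DMSO libraries (-1.71). CD70, a costimulatory ligand, was at 50.3, 51.2 and 64.5 FPKM against 141, 149.5 and 135 FPKM (-1.35), CCL22, a chemokine, changed by -1.39, and the locus that joins the cytokine subunit EBI3 with CCDC94 changed by -1.26. CCR7, the lymph node homing receptor, rose instead, at 367, 382 and 391 FPKM against 127, 128 and 128 FPKM (1.57), as did CD83, an activation marker (1.82). NF-kB targets and subunits were split, 9 of 20 higher (45.0%, against 36.0% of all genes) and 9 lower (45.0%, against 46.3%), with a median of -0.08. The inhibitor gene NFKBIA changed by -1.25, TNFAIP3, which encodes the brake A20, by -0.78, and RELB by -0.83. Of the RGS proteins, which shorten G protein signals, RGS2 was at 656, 696 and 693 FPKM against 134, 135 and 133 FPKM (2.34). BTLA, an inhibitory receptor, changed by -2.36.

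Cell division genes fell in most cases. Of 34 fitted genes of mitosis and the kinetochore 31 were lower (91.2%) and 3 were not called, 19 lower by 2-fold (55.9%), with a median of -1.12. TOP2A, the topoisomerase of dividing cells, was at 16.0, 15.7 and 14.6 FPKM in inhibitor libraries and 68.8, 63.7 and 66.1 FPKM in DMSO libraries (-2.03). AURKB, the kinase of the chromosomal passenger complex, was at 8.98, 7.81 and 8.95 FPKM against 41.2, 44.9 and 41.3 FPKM (-2.18), and SPC24, a kinetochore subunit, at 0.807, 0.850 and 0.680 FPKM against 8.28, 8.89 and 9.57 FPKM (-2.48). CDK1, the mitotic kinase, changed by -1.10. Of 35 genes of DNA replication 31 were lower (88.6%) and 1 higher, with a median of -0.97. PCNA, the replication clamp, was at 95.9, 96.0 and 96.9 FPKM against 188, 210.3 and 192 FPKM (-1.02), TYMS, the thymidylate synthase, changed by -1.29, and UHRF1, which maintains DNA methylation, by -1.43. The exception was DBF4, the activator of the replication kinase CDC7, at 58.6, 61.5 and 55.8 FPKM against 15.9, 16.1 and 16.6 FPKM (1.79). Of 31 genes of DNA damage response and repair 22 were lower (71.0%). Among inhibitors of the cell cycle, CDKN2B, which encodes p15, rose by 1.57, CDKN1B, which encodes p27, was not called (0.05) but passed with median-ratio rescaling (0.15, adjusted p = 0.0336), and RBL2, the retinoblastoma relative p130, fell, with a log2 fold change of -2.13.

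The cell cycle homology region, searched as TTTGAA on both strands, stood in 10 of 28 matched promoters of the mitosis list (35.7%), against 8.51% of fitted loci and 13.6% of all promoters. An E2F site, searched as TTTNNCGC, stood in 13 of 31 of the replication list (41.9%), against 9.78% of fitted loci and 5.93% of all promoters. CDC20 and TOP2A are the mitosis genes with the homology region and the largest falls, with it in capitals at chr1:43358731-43358980 on the plus strand and chr17:40417897-40418146 on the minus strand.
CDC20: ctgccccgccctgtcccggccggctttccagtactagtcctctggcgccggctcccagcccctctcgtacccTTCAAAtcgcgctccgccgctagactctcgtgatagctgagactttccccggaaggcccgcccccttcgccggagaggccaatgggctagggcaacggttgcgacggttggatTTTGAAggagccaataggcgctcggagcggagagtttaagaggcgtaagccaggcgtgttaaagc
TOP2A: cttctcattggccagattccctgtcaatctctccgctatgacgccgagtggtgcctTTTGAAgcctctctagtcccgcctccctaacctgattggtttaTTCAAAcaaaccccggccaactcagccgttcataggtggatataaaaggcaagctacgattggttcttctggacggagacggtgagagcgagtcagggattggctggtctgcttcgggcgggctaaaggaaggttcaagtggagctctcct

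Genes that build ribosomes were mostly lower, and the calls of cytosolic ribosomal proteins turned with the scaling. Of 28 ribosome biogenesis genes 22 were lower (78.6%), with a median of -0.54. MYBBP1A, a nucleolar protein, was at 5.77, 5.89 and 6.48 FPKM in inhibitor libraries and 26.6, 22.7 and 23.3 FPKM in DMSO libraries (-1.84), and NCL, nucleolin, changed by -0.39. Of 55 mitochondrial ribosomal proteins 42 were lower (76.4%), with a median of -0.63. Of 44 cytosolic ribosomal proteins 38 were not called, 5 were higher and 1 was lower, with a median of 0.04, but median-ratio rescaling called 20 of them higher, quantile normalization called 11 lower and leaving out DMSO replicate 2 called 13 higher. RPS6 averaged 5441 ± 179.8 FPKM under the inhibitor and 5489 ± 358 FPKM in DMSO (SD, n = 3 each). In the MYC network MXD1, which competes with MYC for MAX, was at 32.2, 34.2 and 29.4 FPKM against 3.84, 3.45 and 3.56 FPKM (2.83), and MXI1, a gene of the same kind, rose by 1.78.

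Death regulators moved in both directions. PMAIP1, the BH3-only protein NOXA, was at 274, 299 and 269 FPKM in inhibitor libraries and 83.9, 90.5 and 89.2 FPKM in DMSO libraries (1.67). The locus that joins BCL2L11, the BH3-only protein BIM, with ACOXL averaged 23.8 ± 0.819 FPKM under the inhibitor and 4.03 ± 0.176 FPKM in DMSO (log2 fold change 2.30). BCL2L1, the survival gene BCL-XL, was at 12.5, 12.8 and 13.5 FPKM against 45.4, 48.3 and 47.1 FPKM (-1.78). The locus that joins the survival gene MCL1 with an antisense gene averaged 186.7 ± 3.33 FPKM and 108 ± 0.743 FPKM in the same order (0.78). Of 17 genes of death receptors and caspases 11 were higher (64.7%, against 36.0% of all genes) and 5 lower (29.4%, against 46.3%). FAS was at -1.34, CFLAR, which blocks caspase-8, at -1.14, and TNFRSF10B, the TRAIL receptor DR5, at 0.86. MDM2, a ubiquitin ligase, was not called (0.05), though it passed with median-ratio rescaling (0.15, adjusted p = 0.0303).

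Chromatin genes mutated in germinal centre lymphoma were mostly higher, 9 of 12 (75.0%) against 3 lower, with a median of 0.58. CREBBP, the acetyltransferase that opposes BCL6, was at 29.99, 29.0 and 27.7 FPKM in inhibitor libraries and 12.0, 9.58 and 10.2 FPKM in DMSO libraries (1.37), and TET2, a DNA demethylating enzyme, rose by 1.26. EZH2, the polycomb methyltransferase, rose by 0.26, but did not pass in the fit of all 18 libraries (adjusted p = 0.225).

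Among the other lines, both SUDHL6 replicate 3 libraries stood apart, with a Pearson's r across genes of 0.8918 to 0.9159 with the other libraries of their group, against 0.9626 or more between any other 2 libraries of 1 group. The response of Farage was then set against the mean response of SUDHL4 and SUDHL6 by a test of the difference itself in the fit of all 18 libraries. It called 1721 genes with a higher response in Farage (15.9%) and 2315 with a lower one (21.4%), and without both of those libraries 2086 higher and 2766 lower. Set against SUDHL4 alone, 2739 genes had a higher and 3202 a lower response in Farage, and against SUDHL6 alone 1296 and 1985. The genes were chosen by their level in Farage, and a gene near 0 FPKM in the other lines cannot fall there on this scale. Among the 9332 genes with at least 1 FPKM in 3 or more of the 6 libraries of each line, a limit set after the data were seen and called expressed in all 3 lines here, 1341 had a higher response in Farage (14.4%) and 1744 a lower one (18.7%). This limit does not remove every gene too low in another line to fall as far as in Farage. TCTN1 passed it at 2.70 and 2.62 FPKM in DMSO-treated SUDHL4 and SUDHL6. Across the 10837 genes the Farage log2 fold changes correlated with those of SUDHL4 and of SUDHL6 at Pearson's r of 0.69 each, a description across genes. In all 3 lines 2275 genes were called higher (21.0%) and 2663 lower (24.6%). Calls of opposite direction were fewer. Of the genes higher in Farage 247 were lower in SUDHL4 and 173 in SUDHL6, and of those lower in Farage 250 were higher in SUDHL4 and 299 in SUDHL6.

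Among single-gene loci of at least 5 FPKM on average, Farage stood apart most in RGCC, a regulator of cell cycle and complement response. RGCC was at 122, 124 and 119 FPKM in inhibitor-treated and at 11.6, 13.9 and 13.9 FPKM in DMSO-treated Farage (3.12), and it changed by -1.10 in SUDHL4 and -1.12 in SUDHL6, a difference of 4.23 (SE 0.30, adjusted p = 6.03e-08). HMOX1 changed by 0.19 in SUDHL4 and 3.85 in SUDHL6, a difference of 3.30 (SE 0.35). In those lines HMOX1 averaged 0.415 and 31.5 FPKM with inhibitor, against 0.239 and 1.35 FPKM in DMSO. ID3 was at 20.3, 19.9 and 23.4 FPKM against 4.62, 4.72 and 3.22 FPKM in Farage and changed by -1.21 in SUDHL4 and -0.60 in SUDHL6 (difference 3.01). CCL3, a chemokine that B cell receptor signals induce, was at 10.3, 10.2 and 12.6 FPKM against 0.812, 1.02 and 0.632 FPKM in Farage (2.72), with a difference of 2.72, and in SUDHL4 and SUDHL6 it averaged 0.337 and 1.87 FPKM with inhibitor, against 0.784 and 1.0965 FPKM in DMSO. NR4A2, a relative of NR4A1, was at 29.1, 28.8 and 27.6 FPKM against 3.23, 3.39 and 3.80 FPKM (2.72) and changed by -0.04 in SUDHL4 and 0.08 in SUDHL6 (difference 2.70), where it stayed at or below 0.0747 FPKM in every group mean. STC2, a secreted glycoprotein of the integrated stress response, was at 21.7, 22.0 and 21.2 FPKM against 3.20, 2.90 and 3.04 FPKM (2.48), with a difference of 2.46, and its group means in the other lines were at or below 0.0235 FPKM. ADAM19, a metalloprotease, changed by -0.24 in Farage, -2.87 in SUDHL4 and -2.60 in SUDHL6, which gave a positive difference of 2.50. Its Farage change passed the test within Farage but not in the fit of all 18 libraries (adjusted p = 0.308). RPL23AP7, a ribosomal protein pseudogene that may share reads with its parent, had a difference of 2.69.

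MYC separated the lines too. Its response was -0.12 in Farage, -3.51 in SUDHL4 and -1.29 in SUDHL6, a difference of 2.28 (SE 0.12, adjusted p = 2.16e-09). Of the 28 ribosome biogenesis genes, many of them known to be driven by MYC, 15 had a higher response in Farage (53.6%, against 15.9% of all genes), or 14 of 28 (against 14.4%) in the fit of genes expressed in all 3 lines, which holds all 28. In Farage the list median was -0.54, against -1.26 in SUDHL4 and -0.95 in SUDHL6. BCL6 differed as well, with changes of -0.85 in SUDHL4 and -0.19 in SUDHL6 and a difference of 0.72 (SE 0.14, adjusted p = 0.00107). Against SUDHL6 alone that difference was 0.39, with no call (adjusted p = 0.148). Glycolysis genes had 11 of 17 with a higher response in Farage (64.7%), and 8 of the 15 expressed in all 3 lines (53.3%, against 14.4%). List medians over the 17 were 0.67 in Farage, 0.28 in SUDHL4 and -0.23 in SUDHL6. A higher response in Farage was not confined to these lists. Of hypoxia genes expressed in all 3 lines 8 of 14 had a higher response (57.1%) and 1 a lower one. Heat shock chaperones gave 9 of 21 higher (42.9%) and 1 lower. EGR, NR4A, KLF and IER genes gave 4 of 8 higher and 0 lower. The part of MYC in these shares was not tested.

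On the other side stood genes that fell in Farage or rose less there. TNFRSF8, which encodes the activation receptor CD30, was at 13.5, 15.03 and 15.7 FPKM in inhibitor-treated and 80.7, 78.3 and 76.5 FPKM in DMSO-treated Farage (-2.34). It averaged 0.0778 FPKM in DMSO-treated SUDHL4 and 0.105 FPKM in DMSO-treated SUDHL6, where no fall of that size could be measured, so its response was not compared. The same holds for UNQ6494, listed at 0 FPKM in every DMSO library of both lines, and for CHST2, a sulfotransferase lower in all 3 inhibitor libraries of Farage (7.04, 6.22 and 8.46 FPKM, against 33.9, 31.6 and 29.6 FPKM) that averaged 1.08 and 0.429 FPKM in DMSO-treated SUDHL4 and SUDHL6. TCTN1, a protein of the ciliary base, was at 8.04, 6.95 and 7.19 FPKM against 37.9, 40.9 and 38.2 FPKM in Farage (difference -2.44), and it averaged 2.78 and 3.80 FPKM with inhibitor, against 2.70 and 2.62 FPKM in DMSO, in SUDHL4 and SUDHL6. From those DMSO levels a fall as large as in Farage could not be measured. MPEG1 had a difference of -2.18 and the immunoglobulin-region pseudogene ELK2AP of -2.18. MPEG1 was lower in the other lines too. It averaged 3.2 and 0.473 FPKM with inhibitor, against 8.79 and 2.2 FPKM in DMSO, in SUDHL4 and SUDHL6. From the DMSO level of SUDHL6 a fall as large as in Farage could not be measured. The MPEG1 difference did not pass with a pseudocount of 0.1 (-1.59, adjusted p = 0.0687). LMNA, which encodes lamin A, changed by -1.04 in Farage, 0.22 in SUDHL4 and 2.57 in SUDHL6 (difference -2.43). It averaged 1.19 and 14.1 FPKM with inhibitor, against 0.885 and 1.5 FPKM in DMSO, in SUDHL4 and SUDHL6. From the DMSO level of SUDHL4 a fall as large as in Farage could not be measured. SLAMF7 rose in Farage by less than the 3.66 of SUDHL4 and 5.42 of SUDHL6 (difference -2.39). Of the 27 interferon-stimulated genes 14 were expressed in all 3 lines, of which 6 had a lower response in Farage (42.9%, against 18.7% of such genes) and 0 a higher one. Of the 19 host genes of Epstein-Barr virus latency 14 were expressed in all 3 lines, of which 7 had a lower response in Farage (against 18.7% of such genes) and 2 a higher one (14.3%, against 14.4% of such genes). A lower response in Farage was not confined to these lists. Of NF-kB targets and subunits expressed in all 3 lines 9 of 17 had a lower response (52.9%) and 0 a higher one. Toll-like receptor genes gave 6 of 13 lower (46.2%) and 2 higher, and literature targets of BCL6 9 of 22 lower (40.9%) and 3 higher. Members of these lists may be too low in the other lines to fall as far as in Farage. The part of such members in these shares was not tested. Over the 29 fitted BCL6 targets the median was 0.08 in Farage, 0.34 in SUDHL4 and 0.30 in SUDHL6.

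**Figure D4:**
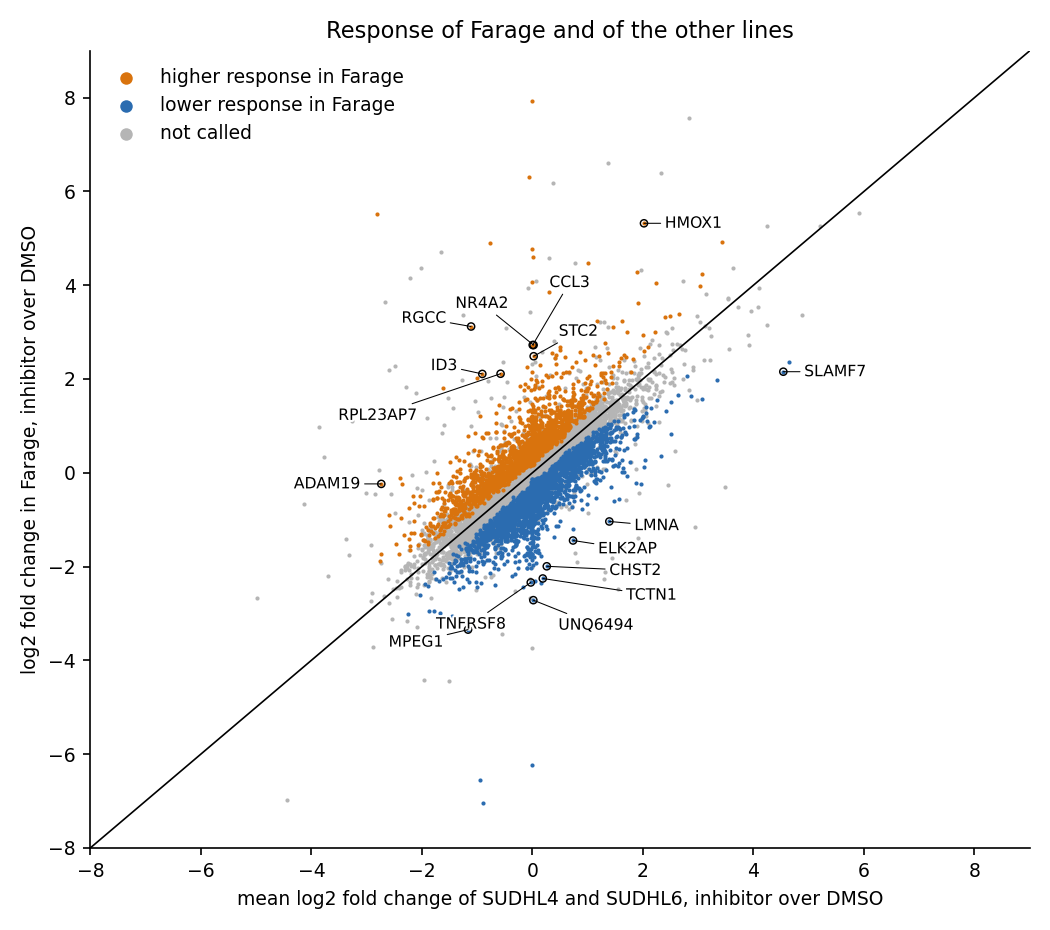
Log2 fold change of inhibitor over DMSO in Farage (vertical axis) against the mean of those in SUDHL4 and SUDHL6 (horizontal axis), on the log2(FPKM + 1) scale, for the 10837 genes. Orange points had a higher and blue points a lower response in Farage by the test of the difference, grey points were not called, the line marks equal responses, and the labelled genes are the 8 single-gene loci of at least 5 FPKM on average with the largest difference each way. RGCC stands farthest above the line among them (4.23). TNFRSF8, UNQ6494, CHST2 and TCTN1 lie below the line but were too low in the other lines to fall as far there, as were MPEG1 in SUDHL6 and LMNA in SUDHL4.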

How the data were processed

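Messenger RNA libraries were made with an Illumina kit, per the labels' protocols. The authors deposited 1 table of FPKM values per locus and library. CASAVA 1.8, TopHat2, Cufflinks and the build hg19 are named in the submitters' processing notes, with no role or order, and neither the annotation nor the strandedness nor any further scaling is named in the sources used here. Without strand, reads of overlapping antisense genes cannot be told apart. Read counts are unknown, so no counting intervals are given.

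Values were taken as log2(FPKM + 1), with a pseudocount of 1, and genes with at least 1 FPKM in 3 or more of the 6 Farage libraries were fitted in limma 3.58.1 (R 4.3.3) with an intensity trend and Benjamini-Hochberg adjustment over all 10837 genes. Every adjusted p in the text comes from limma. The difference of response was a contrast, Farage minus the mean of SUDHL4 and SUDHL6, in 1 fit of all 18 libraries. The method was tested on simulated data. Kept loci include 1329 that merge several genes and 776 that share a symbol, and a gene within a merged locus was described only under both names. Where a symbol had several loci, the one with the highest mean was described.

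The genes and 56 lists of 1302 distinct genes were chosen with earlier results of these data known, 909 of them were fitted, and counts of list members are given as descriptions. Genes named in the text are BCL6, the 15 largest rises and 15 largest falls whose groups do not overlap and whose mean is 5 FPKM or more, the 8 largest differences of response each way, and of each list its key members and the 4 with the largest change, among single-gene loci. The rankings of rises, falls and differences left out symbols shared by several loci, small RNA loci and symbols that start with LOC, LINC or MIR. CD37 is a member of the identity markers. Some genes that these rules name are not reported here. Promoter sequences are those of RefSeq (GRCh38.p14), matched by symbol to 7477 genes, of which 6807 are single-gene loci. Coordinates of genes are those of the deposited table. Tables and plots were made with Python 3.11.15, numpy 2.4.6, pandas 2.3.3 and matplotlib 3.10.9. Unnamed loci, 8406 in all, were left out of the fit.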

Additional observations from a re-analysis of the deposited data

Results flagged for a closer look

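In 1721 genes the response was higher in Farage than in the mean of SUDHL4 and SUDHL6, and in 2315 it was lower, by the test of the difference between lines in limma. Among the genes described, the difference on the log2 scale was 4.23 for RGCC, 3.30 for HMOX1, 3.01 for ID3, 2.72 for CCL3, 2.70 for NR4A2 and 2.69 for RPL23AP7. It was 2.50 for ADAM19, 2.46 for STC2, 2.28 for MYC, 1.90 for CD83 and 0.72 for BCL6. Of these HMOX1 in SUDHL4, CCL3 in SUDHL4, NR4A2 and STC2 stayed below 1 FPKM on average in the other lines. The response was lower in Farage, with a difference of -2.44 for TCTN1, -2.43 for LMNA and -2.39 for SLAMF7. It was -2.18 for MPEG1, -2.18 for ELK2AP and -1.37 for CD86. TCTN1 in SUDHL4 and SUDHL6, MPEG1 in SUDHL6 and LMNA in SUDHL4 were too low in DMSO to fall as far as in Farage.

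Among the 8406 loci without a gene name, which no comparison used, 3 held at least 1 FPKM in all inhibitor libraries of Farage and were listed at 0 in all its DMSO libraries. Another 4 held at least 1 FPKM in all DMSO libraries and were listed at 0 in all inhibitor libraries.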

How the results depend on the processing

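With 18 other settings the number of genes higher in Farage lay between 3077 (mean of at least 5 FPKM) and 5131 (no filter on low values) and of those lower between 3487 and 5893, within 1.5 times the reported counts. Leaving out 1 library at a time gave 3735 to 3816 higher and 4857 to 5037 lower. The median log2 fold change of all genes moved to 0.0013 with no filter, -0.044 among genes with a mean of at least 5 FPKM, -0.0176 with median-ratio rescaling and -0.025 with quantile normalization. BCL6 kept its value of 0.20 but did not pass in the fit of all 18 libraries (adjusted p = 0.133), while its adjusted p over the other settings was 0.00015 to 0.013. The genes with a higher response in Farage were 2739 against SUDHL4 alone, and 1400 to 1480 with 1 library left out. The cause was not tested.

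Among the genes named with values, signs turned only in 6 that did not pass the test in Farage as reported. With another scaling these were B2M (-0.0213 with quantile normalization), CD37 (0.039 with median-ratio rescaling), NCOR1 (0.080 with median-ratio rescaling and 0.017 with quantile normalization) and RPS6 (0.094 and 0.020 with the same settings). With 1 library left out, B2M ranged from -0.024 to 0.1002, CDKN1B from -0.00421 to 0.086, IL10 from -0.0121 to 0.095, NCOR1 from -0.0515 to 0.011 and RPS6 from -0.0547 to 0.038. Of 1836 counts of list members under other settings, 82 moved by over 1.5 times, 23 of them in the cytosolic ribosomal proteins.

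The replicate block, a term for the shared replicate number, gave 3820 genes higher and 4919 lower, 2028 and 2591 in the difference, and an adjusted p of 0.0127 for BCL6. The numbers are given in the labels with no stated meaning, and the deviations of same-numbered libraries correlated at 0.084, -0.074 and 0.021 across genes, so they were not taken as pairs. With no read counts, the depth behind a single value cannot be given, and a p near the threshold rests on 3 libraries a group.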

Other observations

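Genes of the aryl hydrocarbon receptor, a sensor of foreign small molecules, were higher in inhibitor-treated Farage at the few single-gene loci fitted. Of 13 genes listed 5 were fitted at loci of their own and were called higher (against 36.0% of all genes), of which NFE2L2 and SLC7A5 stand in the stress lists too. The locus that joins AHRR, a repressor that the receptor is known to induce, with PDCD6 was called lower. It averaged 73.5 ± 3.37 FPKM with inhibitor and 115.7 ± 6.09 FPKM in DMSO (SD, n = 3 each, log2 fold change -0.65), and the part of AHRR in it is unknown. CYP1B1, a cytochrome P450 that the receptor is known to induce, was at 18.4, 18.6 and 17.9 FPKM in the inhibitor libraries and at 7.05, 6.25 and 7.09 FPKM in the DMSO libraries (log2 fold change 1.31, SE 0.05), while its group means in SUDHL4 and SUDHL6 were at or below 0.0300 FPKM. TIPARP, a mono-ADP-ribosyltransferase and target of the same receptor, rose by 1.75, and AHR itself was at 18.9, 19.5 and 20.01 FPKM against 12.1, 12.1 and 12.4 FPKM (0.63). Every inhibitor library of these 3 genes lay above every DMSO library, as held for 37.3% of all genes.

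Secreted signals and costimulatory molecules moved both ways. CXCL8, the neutrophil chemokine, was at 3.76, 3.71 and 3.79 FPKM in the inhibitor libraries, against 0.207, 0.343 and 0.270 FPKM in the DMSO libraries (1.90), while LTB, the lymphotoxin that organises follicles, was at 5.37, 4.04 and 5.89 FPKM against 22.8, 22.9 and 20.5 FPKM (-1.93). IL10, a cytokine that dampens inflammation, had overlapping groups and no call (0.04), though it passed with quantile normalization (0.24, adjusted p = 0.00662). CD274, which encodes the checkpoint ligand PD-L1, rose by 1.31, and CD40, the receptor of T cell help, was at 38.8, 40.6 and 41.3 FPKM against 98.1, 105 and 103 FPKM (-1.32). CD83 changed by 1.82 in Farage, -0.34 in SUDHL4 and 0.19 in SUDHL6, a difference of 1.90. CD86, a costimulatory ligand, went the other way, with -0.23 in Farage (adjusted p = 0.208 in the fit of all 18 libraries), 0.90 in SUDHL4, 1.38 in SUDHL6 and a difference of -1.37.

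Toll-like receptor genes were split as well, 6 of 15 higher and 7 lower. UNC93B1, the chaperone that brings endosomal receptors to their place, was at 2.05, 1.84 and 1.79 FPKM in the inhibitor libraries and 10.5, 9.71 and 9.40 FPKM in the DMSO libraries (-1.91), MYD88, their adaptor, changed by -1.15, and TRAF6, the ubiquitin ligase below it, rose by 1.71. Cholesterol synthesis genes gave 11 higher (47.8%, against 36.0%) and 11 lower (47.8%, against 46.3%) of 23, with a median of 0.11. ACAT2, which makes acetoacetyl-CoA, was at 34.0, 35.7 and 33.0 FPKM against 86.1, 92.8 and 87.8 FPKM (-1.35). In the NOTCH pathway 10 of 18 were higher (55.6%, against 36.0%) and 6 lower (33.3%, against 46.3%), with a median of 0.28. ADAM17, the protease that sheds surface proteins, was at 32.9, 32.2 and 32.8 FPKM against 5.63, 4.96 and 5.17 FPKM (2.43).

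Of the G1 cyclins, CCND1 was at 2.36, 2.42 and 2.28 FPKM in the inhibitor libraries and 8.35, 7.33 and 7.46 FPKM in the DMSO libraries (-1.38). In DMSO it averaged 0.238 FPKM in SUDHL4 and 0.134 FPKM in SUDHL6, too low to compare the fall. CCND3, the cyclin of germinal centre B cells, was at 54.4, 51.9 and 58.6 FPKM against 111, 119.8 and 111 FPKM (-1.04). Of 7 fitted replication-dependent histones, whose usual transcripts lack the poly(A) tail that messenger RNA kits select, 6 were higher (85.7%, against 36.0% of all genes) and 1 lower. HIST1H2BK was at 24.6, 27.0 and 27.3 FPKM in inhibitor libraries, against 8.45, 7.21 and 7.48 FPKM in DMSO libraries (1.65).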
